A study of Mus musculus with 4 samples.

Results

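RNA contacts of 10 genes of glucose uptake and glycolysis were followed in mouse spermatogonial stem cells, the self-renewing cells at the base of sperm production. The genes were the glucose transporters Slc2a1 and Slc2a3 and the enzyme genes Hk1, Pfkl, Aldoa, Gapdh, Pgk1, Eno1, Pkm and Ldha. They were chosen by name, with earlier results of these data known. Every pair of RNAs that held one of them on either side was taken, and counts were summed per gene (its contact total). All 10 were present among the 13318 RNAs of the table, in 69 of its 56636 pairs.

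Contacts had been measured by RIC-seq, in which RNA fragments held near each other in fixed cells are ligated and the resulting chimeric reads are counted per pair of RNAs. The compared groups were 2 libraries labelled Differentiation and 2 control libraries labelled WT, all from cells labelled as spermatogonial stem cells. The label Differentiation is entered as a genotype and is read here as a differentiation treatment. The agent, the duration of differentiation, the age of the animals and the number of animals or cultures could not be learned from the labels used. Replicates may therefore be technical, and p-values reflect just the library-to-library spread.

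Glycolysis turns glucose into pyruvate in the cytosol. Facilitative transporters bring glucose in, hexokinase traps it, phosphofructokinase commits it, and the later enzymes yield ATP and pyruvate, which lactate dehydrogenase can reduce to lactate. Cultured spermatogonial stem cells are known to draw on glycolysis, while meiotic and later germ cells are known to use lactate and pyruvate supplied by Sertoli cells.

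The listed counts summed to 793129 and 1155923 in the differentiation libraries and to 1209031 and 1400011 in the controls. Pairs of the 10 RNAs held 1006 and 1691 of them in the differentiation libraries, against 1494 and 1724 in the controls. That was 0.127% (95% Wilson interval 0.119 to 0.135) and 0.146% (0.139 to 0.153) in differentiation, and 0.124% (0.117 to 0.130) and 0.123% (0.117 to 0.129) in control (exact two-sided permutation p = 0.33, the smallest that 2 against 2 libraries can give). Without the pair of Pkm with Gm6560, the largest one, the direction turned, with 0.0640% and 0.0705% in differentiation and 0.0790% and 0.0790% in control. Every listed pair had at least 1 count in all 4 libraries, so a contact lost or gained completely is not seen here. Of 13 stem cell markers 6 were listed, 2 of 5 tested fell (Gfra1 and Shisa6), and Id4, Nanos2, Lhx1, Bcl6b, Pax7, Eomes and Lin28a were not listed. Of 8 tested markers of differentiating spermatogonia and meiosis 5 rose (Sycp1, Sycp2, Dmc1, Smc1b and Hormad1). Kit (log2 change −0.19), Stra8 (0.40) and Sohlh2 (1.08) did not pass. Over all RNAs tested 5.44% rose and 6.75% fell. Contact totals can move with the RNA level, with the share of cells that hold the RNA and with its contacts, and these cannot be told apart here.

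3 of the 10 contact totals changed with differentiation. Slc2a3, which encodes the high-affinity glucose transporter GLUT3, rose 2.60-fold. Pfkl, which encodes the liver-type subunit of phosphofructokinase, fell 2.70-fold, and the enolase gene Eno1 fell 2.39-fold (fold of the fit). The other 7 did not pass. All 10 were tested among 10993 RNAs by edgeR (quasi-likelihood F test), of which 12.2% passed in either direction, 5.44% as higher and 6.75% as lower. The median log2 change of the 10 was −0.68, against −0.0007 over all RNAs tested. All 3 calls were lost when either control was left out, which leaves 1 control library. Without control 1 the log2 changes were 1.30 for Slc2a3, −1.80 for Pfkl and −1.30 for Eno1. Without control 2 they were 1.45, −0.95 and −1.23 in the same order. How many of all RNAs pass in such fits was not counted, so the loss may not be particular to these 3.

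**Figure D1:**
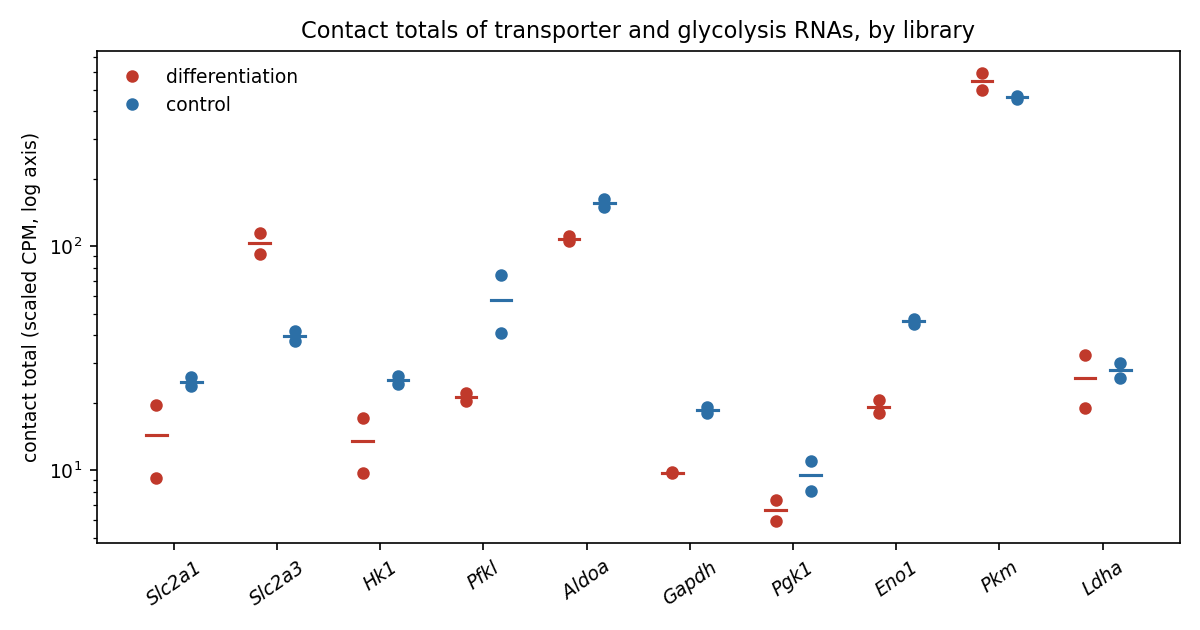
Contact total of each of the 10 RNAs in scaled CPM (log axis), with 1 point per library and a bar at the mean of 2 libraries, differentiation in red and control in blue. Slc2a3 lies higher in both differentiation libraries (92.1 and 114 CPM) than in both controls (37.6 and 41.8 CPM), and so does Pkm. Ldha overlaps, and the other 7, Eno1 and Pfkl among them, lie lower.

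The promoters of Pfkl and Eno1, the 2 members that fell, are shown because glycolysis genes are textbook targets of hypoxia-inducible factors and of Myc. That of Ldha, which did not pass, is also shown and was the member window with most matches to the motif marked below. It does not stand for the other members that did not pass, and Slc2a3, which rose, had no promoter entry. The letters are the 250 bases before an annotated start from RefSeq (GRCm38.p6), the outermost one for Pfkl and Eno1 and an inner one for Ldha, in lower case 5′ to 3′ on the strand of the gene, with ACGTG on either strand in capitals (the core of the hypoxia response element, which overlaps the E-box CACGTG).
Pfkl, chr10:78009808-78010057, minus strand: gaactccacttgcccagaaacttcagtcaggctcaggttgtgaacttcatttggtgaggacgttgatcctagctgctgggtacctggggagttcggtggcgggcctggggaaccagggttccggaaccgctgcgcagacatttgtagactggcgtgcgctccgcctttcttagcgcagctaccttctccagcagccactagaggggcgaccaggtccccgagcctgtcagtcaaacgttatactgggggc
Eno1, chr4:150236458-150236707, plus strand: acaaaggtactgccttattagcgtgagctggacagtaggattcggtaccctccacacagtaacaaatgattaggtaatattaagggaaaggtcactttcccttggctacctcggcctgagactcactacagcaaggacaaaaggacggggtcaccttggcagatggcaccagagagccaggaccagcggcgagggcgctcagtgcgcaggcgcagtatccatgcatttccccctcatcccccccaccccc
Ldha, chr7:46845554-46845803, plus strand: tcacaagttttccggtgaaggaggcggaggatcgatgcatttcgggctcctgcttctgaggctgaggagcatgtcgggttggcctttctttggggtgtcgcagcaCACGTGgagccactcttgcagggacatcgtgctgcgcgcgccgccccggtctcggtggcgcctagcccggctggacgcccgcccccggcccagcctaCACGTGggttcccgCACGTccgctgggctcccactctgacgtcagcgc
The Ldha window held 5 matches, counting both strands of an E-box, the most of any member window, and those of Pfkl and Eno1 none. Hk1 and Gapdh, whose totals did not pass either, held no match in any window. Another Ldha window, at chr7:46846832-46847081, held none. Of 9 members with a promoter window, 5 had ACGTG in at least 1 window (Slc2a1, Aldoa, Pgk1, Pkm and Ldha). Counted by window, 6 of 16 member windows and 16.6% of all 32851 windows held it. CACGTG stood in a window of Ldha only among the members, and in 6.02% of all windows. These matches describe letters near gene starts, and binding of any factor was not measured.

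Of the transporters, Slc2a3 rose and Slc2a1 did not pass. Slc2a3 had 113 and 211 counts in the differentiation libraries and 65 and 83 in the controls. Scaled to library size (CPM after TMM scaling), this was 92.1 and 114 CPM in differentiation and 37.6 and 41.8 CPM in control. Both differentiation values lay above both controls. The mean was 103 ± 15.4 CPM in differentiation and 39.7 ± 2.97 CPM in control (SD, n = 2 each), a log2 change of 1.38 (SE 0.21, edgeR adjusted p = 0.00172). Slc2a3 lies on chromosome 6 at 122727809 to 122802363 (GRCm38.p6, as all coordinates here).

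Slc2a1 encodes GLUT1, the widely expressed basal glucose transporter, and lies on chromosome 4 at 119108745 to 119137330. It had 24 and 17 counts in differentiation, or 19.6 and 9.18 CPM, and 45 and 47 counts in control, or 26.0 and 23.7 CPM. Both differentiation values lay below both controls, but they also lay far apart from each other. The log2 change was −0.84 (SE 0.40, edgeR adjusted p = 0.201), which did not pass. It passed without differentiation 1 (adjusted p = 0.0164), the higher of the differentiation libraries.

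Slc2a3 made up 82.5% (95% Wilson interval 75.3 to 87.9) and 92.5% (88.4 to 95.3) of the summed counts of both transporter RNAs in the differentiation libraries. In the controls it made up 59.1% (49.7 to 67.8) and 63.8% (55.3 to 71.6). The share was higher in both differentiation libraries, by 26.0 percentage points on average, a split chosen after its values were seen (exact two-sided permutation p = 0.33). Over contacts with other RNAs only, the share was 57.9% (45.0 to 69.8) and 80.0% (70.3 to 87.1) in differentiation and 46.4% (36.2 to 57.0) and 53.0% (43.3 to 62.5) in control.

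The rise of Slc2a3 lay mainly in contacts of the RNA with itself. The Slc2a3 within-RNA pair had 80 and 143 counts in differentiation and 26 and 30 in control, or 114 and 137 CPM against 21.9 and 21.5 CPM (pairs are scaled to the sum of pairs, so their CPM are not on the scale of totals). It rose 5.77-fold (log2 change 2.53, SE 0.31, edgeR adjusted p = 1.31e-04). Over all pairs tested 5.24% passed, 2.85% as higher and 2.40% as lower, and among within-RNA pairs 12.3% rose. The call was lost without control 2, where 1 control was left and the log2 change was 2.5. Within-RNA counts were 70.8% (61.8 to 78.4) and 67.8% (61.2 to 73.7) of the Slc2a3 counts in differentiation, and 40.0% (29.0 to 52.1) and 36.1% (26.6 to 46.9) in control.

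Slc2a3 contacts with other RNAs did not pass. Over between-RNA pairs alone its log2 change was 0.56 (edgeR adjusted p = 0.202). Its pair with Gm42418, an RNA with contacts to 63.2% of all RNAs, had 7 and 14 counts in differentiation and 2 and 8 in control (log2 change 1.60, adjusted p = 0.191). Its pair with the pseudogene Gm4482 had 10 and 22 counts in differentiation and 9 and 6 in control (1.59, adjusted p = 0.121). Gm4482 (chromosome 6 at 122791545 to 122793415) lies inside the Slc2a3 gene model, so the 2 sides of this pair share a locus. The pair with Uck1, a uridine-cytidine kinase gene on chromosome 2, had 8 and 13 counts in differentiation and 13 and 31 in control (−0.48, adjusted p = 0.683). The same counts stood under Uck1 with Gm4482. Keeping only 1 of each such set of identical pairs removed Uck1 from the Slc2a3 total. The log2 change of the total was then 1.78 (edgeR adjusted p = 5.31e-04), against 1.38 with all pairs.

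**Figure D2:**
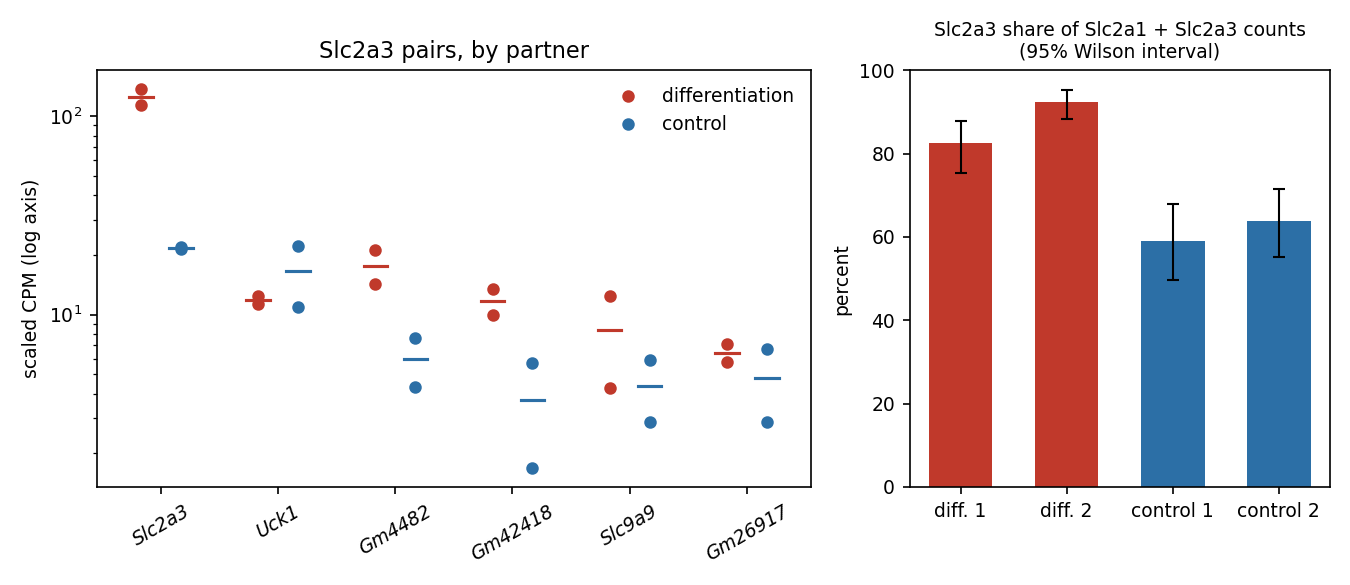
Left, each Slc2a3 pair in scaled CPM (log axis) by partner, with 1 point per library and a bar at the mean, differentiation in red and control in blue; right, the percent of Slc2a1 and Slc2a3 counts that were Slc2a3, by library, with 95% Wilson intervals. The pair of Slc2a3 with itself shows the widest gap (114 and 137 CPM against 21.9 and 21.5 CPM).

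Of the enzymes of the first steps, Pfkl fell and Hk1 did not pass. Pfkl (chromosome 10 at 77986947 to 78009807) had 25 and 41 counts in differentiation and 71 and 147 in control. That was 20.4 and 22.1 CPM in differentiation and 41.1 and 74.0 CPM in control, a log2 change of −1.43 (SE 0.32, edgeR adjusted p = 0.0140). The groups did not overlap, and the controls lay much farther apart than the differentiation libraries. The change was −0.95 without control 2 and −1.80 without control 1.

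The Pfkl total rested almost wholly on RNAs with very many contacts, and those of Slc2a1 and Hk1 rested largely on them. Gm42418, Gm26917, Slc9a9 and Malat1, a nuclear-speckle RNA, held 90.2% of Slc2a1 counts in differentiation and 91.3% in control, and 84.6% and 87.2% of Hk1 counts. With Neat1 added, they held 51.4% and 58.2% of all between-RNA counts in differentiation and 64.1% and 69.4% in control. Of Pfkl counts they held 92.4% in differentiation and 95.9% in control. Its largest pair, with Gm42418, had 10 and 19 counts in differentiation and 22 and 57 in control (log2 change −0.86, edgeR adjusted p = 0.323), and that with Slc9a9 had 7 and 6 in differentiation and 9 and 27 in control (−0.84), with overlap. With Malat1 it had 3 and 3 counts in differentiation and 14 and 21 in control (log2 change −1.93, SE 0.67, edgeR adjusted p = 0.108). With Gm26917 it had 2 and 11 counts in differentiation and 21 and 38 in control (−1.63, adjusted p = 0.113). None of the 4 passed. Without pairs of Gm42418 or Gm26917 the Pfkl total missed the threshold (−1.49, adjusted p = 0.0691). The totals of Malat1 (−1.09, adjusted p = 0.00106) and Gm26917 (−0.50, adjusted p = 0.0296) themselves fell in these libraries, while those of Gm42418 (−0.26, adjusted p = 0.255) and Slc9a9 (−0.29, adjusted p = 0.246) did not pass. Without pairs of Neat1 or Malat1 the Pfkl total still passed (−1.33, adjusted p = 0.0291).

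Hk1, which encodes the hexokinase that phosphorylates glucose at the mitochondrial surface, had 21 and 18 counts in differentiation and 42 and 52 in control. That was 17.1 and 9.72 CPM in differentiation and 24.3 and 26.2 CPM in control, with no overlap (log2 change −0.95, SE 0.37, edgeR adjusted p = 0.127). It passed without differentiation 1 (adjusted p = 0.0200). Its pair with Gm26917 had 4 and 1 counts in differentiation and 11 and 12 in control (−1.56, adjusted p = 0.269), and its pair with Slc9a9 had 3 and 6 counts in differentiation and 7 and 7 in control (−0.09).

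In the middle of the pathway, Aldoa, Gapdh and Pgk1 did not pass. Each was lower in both differentiation libraries, as were 29.1% of all RNAs tested. Aldoa encodes the aldolase that splits fructose bisphosphate. It had 129 and 205 counts in differentiation and 281 and 296 in control, or 105 and 111 CPM against 163 and 149 CPM (log2 change −0.53, SE 0.17, edgeR adjusted p = 0.0720). Without differentiation 2 its adjusted p was 0.0476. Gapdh, the glyceraldehyde phosphate dehydrogenase gene often used as a reference for RNA amounts, had 12 and 18 counts in differentiation and 31 and 38 in control (9.79 and 9.72 CPM against 17.9 and 19.1 CPM). Its change was −0.92 (SE 0.38, adjusted p = 0.147). Pgk1, the X-linked phosphoglycerate kinase gene, had the fewest counts, with 9 and 11 in differentiation and 19 and 16 in control (−0.53, SE 0.50, adjusted p = 0.547).

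Eno1 encodes alpha-enolase, which forms phosphoenolpyruvate, and lies on chromosome 4 at 150236708 to 150248879. It had 22 and 38 counts in differentiation and 78 and 94 in control. That was 17.9 and 20.5 CPM in differentiation and 45.1 and 47.4 CPM in control, so that the gap between groups was wide next to the spread within them. The mean was 19.2 ± 1.82 CPM in differentiation and 46.2 ± 1.57 CPM in control (SD, n = 2 each), a log2 change of −1.25 (SE 0.28, edgeR adjusted p = 0.0135).

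No single Eno1 pair passed. The steepest was that with Rere, a corepressor gene 32.6 kb away on the same chromosome, with 3 and 2 counts in differentiation and 20 and 17 in control (log2 change −2.27, SE 0.70, edgeR adjusted p = 0.0712). Its pair with the pseudogene Gm4735 (chromosome 2 at 80837095 to 80838773) had 7 and 6 counts in differentiation and 19 and 24 in control (−1.12, adjusted p = 0.268). Gm4735 was also listed with the Eno1 relative Eno1b, whose total did not pass (−0.34, adjusted p = 0.560). The pair of Eno1 with Gm42418 had 4 and 7 counts in differentiation and 11 and 20 in control (−0.91), and that with Gm26917 had 1 and 15 in differentiation and 13 and 22 in control (−0.63). Without pairs to pseudogenes or named copies the Eno1 total still fell (−1.14, adjusted p = 0.0423).

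Pkm and Ldha, at the end of the pathway, did not pass in their totals. Pkm encodes the muscle-type pyruvate kinase, made as the isoforms M1 and M2 by alternative splicing, which these counts do not separate. It had 611 and 1097 counts in differentiation and 810 and 900 in control, or 498 and 592 CPM against 469 and 453 CPM. The differentiation values were higher without overlap (log2 change 0.24, SE 0.15, edgeR adjusted p = 0.342). Pkm held 60.7% and 64.9% of the counts of the 10 RNAs in differentiation, and 54.2% and 52.2% in control, so sums over the 10 mostly follow Pkm.

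A single partner carried most Pkm counts. The pair with Gm6560, an RNA classed as a pseudogene on chromosome 5 at 22724079 to 22726259, had 499 and 877 counts in differentiation and 539 and 619 in control. It rose 1.73-fold, with 709 and 840 CPM in differentiation and 454 and 444 CPM in control (log2 change 0.79, SE 0.19, edgeR adjusted p = 0.0216). It made up 81.7% (78.4 to 84.5) and 79.9% (77.5 to 82.2) of Pkm counts in differentiation, and 66.5% (63.2 to 69.7) and 68.8% (65.7 to 71.7) in control. The call was lost under column totals (edgeR adjusted p = 0.0603) and with no low-count filter (0.168). It was also lost with 1 control left, at log2 changes of 0.77 without control 1 and 0.76 without control 2. Without pairs to pseudogenes or named copies the Pkm total had the opposite sign (−0.46, adjusted p = 0.166). The other large Pkm pairs were those with Gm42418 (30 and 47 counts in differentiation, 66 and 75 in control; −0.32), Gm26917 (16 and 45, against 70 and 87; −0.85) and Slc9a9 (33 and 53, against 61 and 57; 0.09), and none passed.

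Ldha, which encodes the lactate dehydrogenase subunit that favours lactate formation, was the 1 RNA of the 10 whose groups overlapped. It had 40 and 35 counts in differentiation and 52 and 51 in control, or 32.6 and 18.9 CPM against 30.1 and 25.7 CPM (log2 change −0.14, SE 0.34, edgeR adjusted p = 0.840). The sign turned under column totals (0.01), over between-RNA pairs (0.01) and without differentiation 2 (0.22). Its largest pair was with Pcdh9, a protocadherin gene, at 11 and 14 counts in differentiation and 17 and 15 in control (0.21, adjusted p = 0.880).

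In all, 9 of the 10 totals had non-overlapping groups, 2 higher and 7 lower with differentiation. Over all RNAs tested 55.2% had non-overlapping groups, 26.1% higher and 29.1% lower. In the same libraries 4 of 6 tested Sertoli cell markers fell, against 6.75% of all RNAs, and the listed ones had a summed level of 510 to 556 CPM in differentiation against 853 to 982 CPM in control. The defining Sertoli markers Amh and Rhox5 were not listed. Of 9 tested fibroblast and feeder markers 4 fell and 1 rose, with a summed level of 1586 to 1722 CPM in differentiation and 1652 to 1814 CPM in control. The part of such cells in the glycolysis values was not tested.

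**Figure D3:**
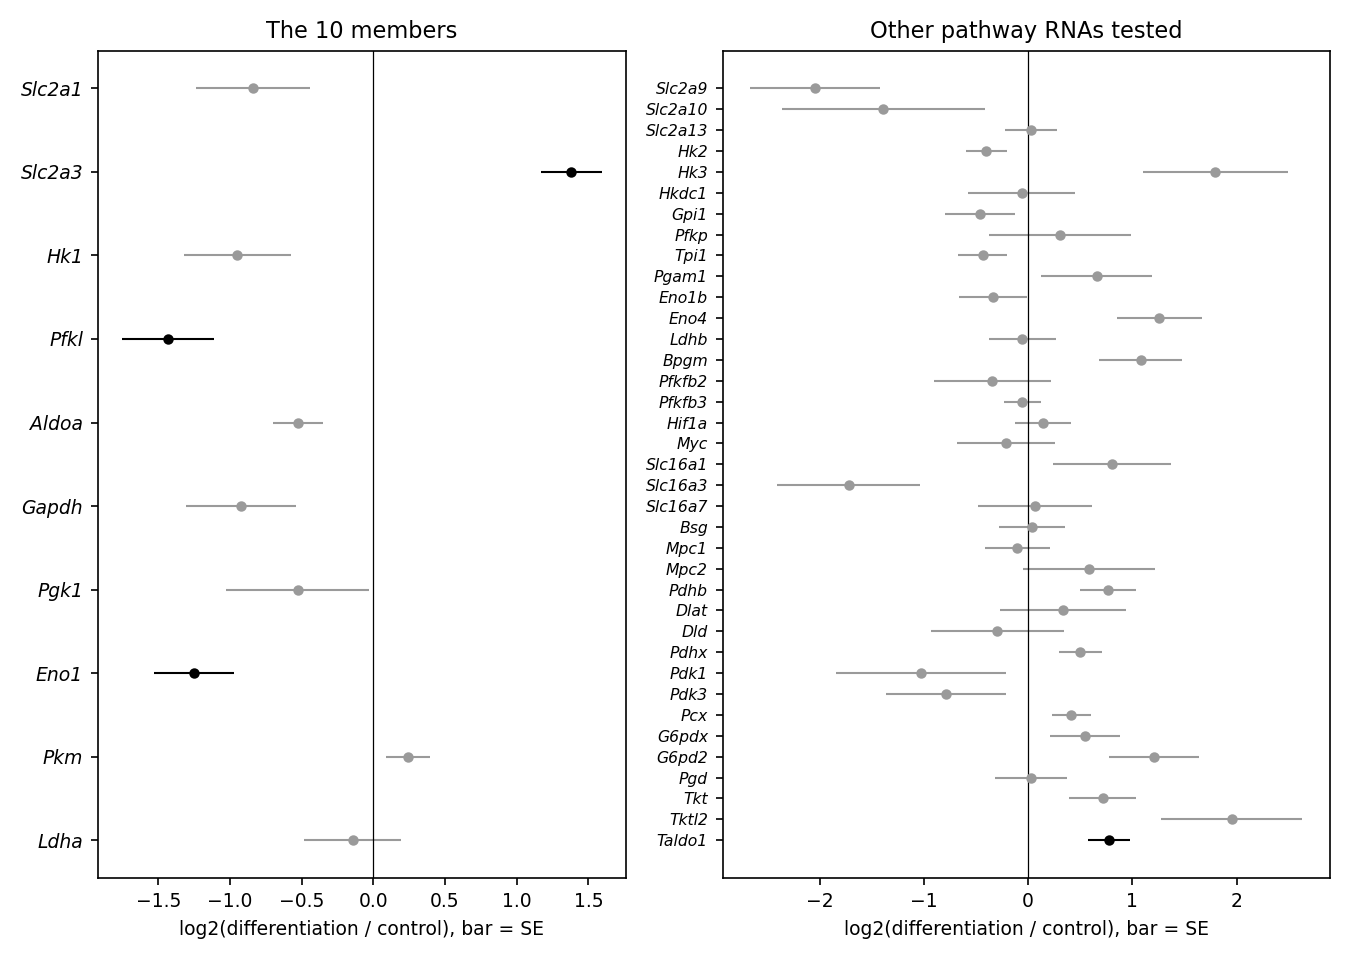
Log2 change of the contact total, differentiation over control, with the SE of the fit, for the 10 members (left) and for the 37 other tested RNAs of the pathway (right); black points passed an adjusted p under 0.05. Slc2a3 (1.38) lies to the right of the other members, with Pfkl (−1.43) and Eno1 (−1.25) at the left, and Taldo1 (0.78) is the single black point on the right side.

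Partners differed between the members in kind. Of the 69 pairs, 1 joined an RNA to itself, 30 had a partner among 5 RNAs with very many contacts (Gm42418, Gm26917, Slc9a9, Malat1 and Neat1, here called hubs), 12 had a pseudogene or a named gene copy, and 26 had another RNA. No pair joined 2 of the 10. Slc2a3 was the single member with a listed within-RNA pair, whereas 48.9% of the 5613 RNAs with at least 4 pairs had one, and the members had 4 to 14 pairs each.

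Gm42418 was a partner of all 10, the ion exchanger RNA Slc9a9 of 9, Gm26917 of 8, the actin-binding protein RNA Shroom3 of 6 and the long noncoding RNA Gm12153 of 5. Among RNAs with at least 4 pairs these were partners of 95.6%, 92.7%, 93.3%, 51.4% and 30.1% in the same order, so the members stood near the background for the first 3. Neat1 was a partner of none. Of the members' pairs tested, 9 with Gm42418 had log2 changes of −1.46 to 1.60 and 8 with Gm26917 had −2.08 to 0.42, and none passed. With Gm26917 the counts summed over members were 45 and 102 in differentiation and 177 and 216 in control.

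The share of hubs in the members' between-RNA counts depended on the pair of Pkm with Gm6560. With it, the share was 25.3% (22.6 to 28.2) and 23.6% (21.5 to 25.8) in differentiation and 37.3% (34.9 to 39.8) and 40.5% (38.2 to 42.9) in control, lower in both differentiation libraries (exact two-sided permutation p = 0.33). Without it, the share was 54.8% (50.1 to 59.5) and 54.4% (50.6 to 58.1) in differentiation and 59.0% (55.8 to 62.1) and 63.8% (60.9 to 66.6) in control. Over all RNAs the hub share of between-RNA counts was 51.4% and 58.2% in differentiation and 64.1% and 69.4% in control. The difference was −14.5 percentage points for the members with the Gm6560 pair, −6.80 without it and −11.9 for all RNAs, and the members were not tested against all RNAs.

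Pseudogenes and named copies held 59.8% (56.8 to 62.8) and 62.1% (59.8 to 64.4) of the members' counts in differentiation, and 49.4% (46.9 to 51.9) and 48.2% (45.8 to 50.6) in control. Without the pair of Pkm with Gm6560 the groups overlapped, at 20.3% (17 to 24.0) and 21.3% (18.6 to 24.2) in differentiation and 20.8% (18.4 to 23.5) and 19.2% (17 to 21.6) in control (exact two-sided permutation p = 0.67). Over all between-RNA counts they held 6.72% and 9.35% in differentiation and 5.10% and 4.78% in control. The bases differ, since the member shares include within-RNA counts. Within-RNA counts were 7.95% and 8.46% of member counts in differentiation and 1.74% and 1.74% in control. Of all counts in the 4 libraries they were 47.7% and 52.9% in differentiation and 48.9% and 49.4% in control. Besides Pkm with Gm6560, the large ones were pairs of Aldoa. Its pair with the retrogene Aldoart1, a testis-expressed copy on chromosome 4, had 38 and 89 counts in differentiation and 107 and 116 in control (log2 change −0.30, edgeR adjusted p = 0.639). Its pair with Aldoart2 on chromosome 12 had 8 and 12 counts in differentiation and 13 and 15 in control (0.07). Of Aldoa counts, these retrogenes and partners classed as pseudogenes held 58.1% (49.5 to 66.3) and 62.9% (56.1 to 69.2) in differentiation. In control they held 53.7% (47.9 to 59.5) and 55.4% (49.7 to 61.0). Pgk1 had a pair with its related sequence Pgk1-rs7 at 2 and 3 counts in differentiation and 4 and 3 in control, too few to test. How reads that match both a gene and its copy were placed is not stated in the labels, so these pairs and the totals that hold them are uncertain. Whether Gm6560 resembles Pkm in sequence, or the other pseudogene partners their members, was not examined here.

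**Figure D4:**
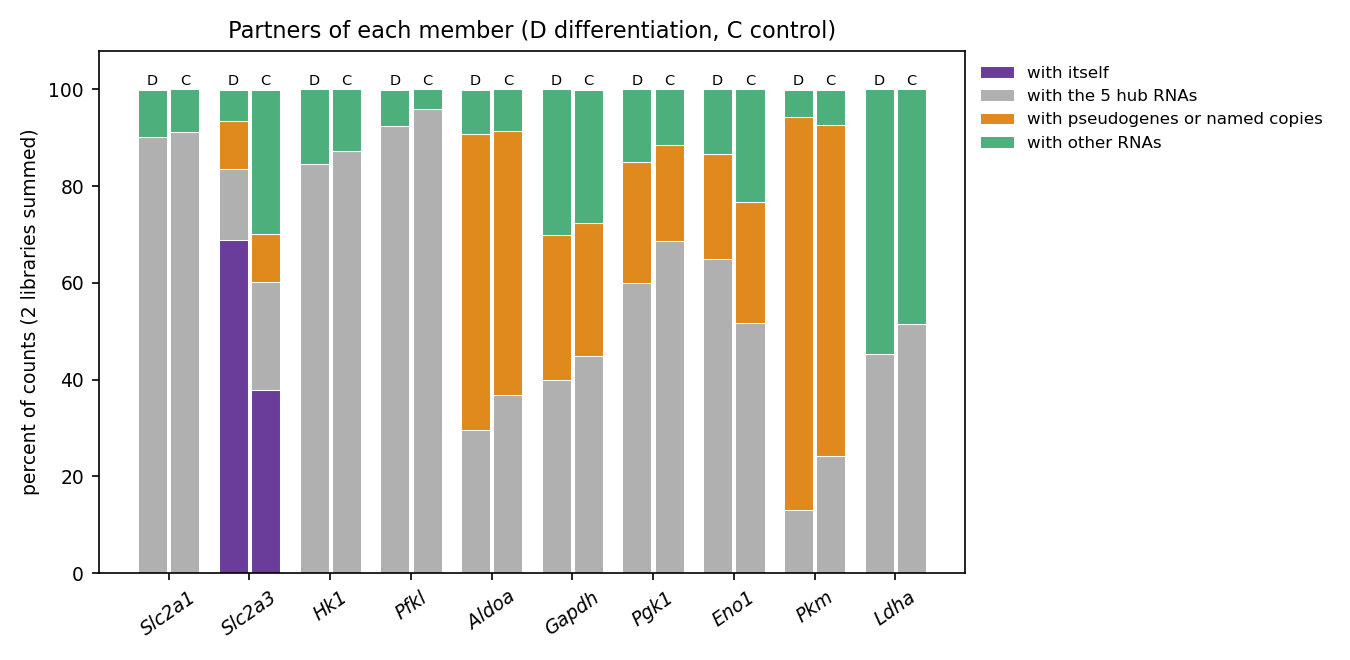
Percent of each member's counts by kind of partner, 2 libraries summed, with differentiation (D) left of control (C). The orange part (pseudogenes or named copies) is largest for Pkm, at 81.3% in differentiation and 68.4% in control, and the purple part (contacts with itself) appears only for Slc2a3, at 68.8% and 37.8%.

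At the level of single pairs, 48 of the 69 had counts enough for a test, 2 rose (Slc2a3 with itself and Pkm with Gm6560) and none fell by edgeR, near the 5.24% of all pairs that passed. With DESeq2 the count was also 2. By edgeR 10 of the 48 had an unadjusted p under 0.05. The share over all pairs at that level was not counted, so the 10 have no background here. For contact totals, which are another unit, 6 of the 10 members had an unadjusted p under 0.05 by edgeR. Of all 10993 totals tested, 2970 did. Of the 48, 16 had a positive and 32 a negative log2 change, with a median of −0.31 against 0.02 over all pairs tested. Eno1 with Rere (adjusted p = 0.0712) passed with the default low-count filter (0.0414), with the replicate block (0.0459) and without differentiation 1 (0.0479). Gapdh had 2 pairs with the same counts (4 and 5 in differentiation, 11 and 8 in control), with Cfap77 and with the pseudogene Gm13394, whose genes lie 20.9 kb apart on chromosome 2, and they may not be separate observations. The pair of Slc2a1 with Malat1 had 2 and 1 counts in differentiation and 11 and 11 in control (log2 change −2.23, edgeR adjusted p = 0.122), a ratio of control over differentiation of 5.48 with a counting interval of 1.65 to 28.6.

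Of 77 further genes of sugar transport, glycolysis, its regulation and its side branches, 48 were listed and 37 tested. Only Taldo1 passed, as higher, where 12.2% of all RNAs tested passed in either direction, and 21 of the 37 log2 changes were positive and 16 negative, with a median of 0.04. Among 11 other glycolytic enzymes none passed, and their median was −0.05. Those with most counts were the hexokinase gene Hk2 (82 and 145 counts in differentiation, 162 and 196 in control; −0.40, edgeR adjusted p = 0.210) and the triose phosphate isomerase gene Tpi1 (45 and 72, against 91 and 99; −0.44, adjusted p = 0.262).

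Of the pentose phosphate branch, which makes NADPH and ribose from glucose phosphate, 1 of 6 tested RNAs rose, where 5.44% of all RNAs did. The 6 log2 changes were positive, with a median of 0.75 against −0.0007 over all RNAs tested. All 10 RNAs of the branch were listed, and the rest did not pass the count filter. Of those, Pgls lay lower in both differentiation libraries (1 and 3 counts, against 5 and 14 in control). Scaled, Rpia lay higher (2 and 3, against 2 and 3), and Tktl1 and Rpe overlapped. Taldo1, the transaldolase gene, had 196 and 325 counts in differentiation and 199 and 161 in control. Scaled, both differentiation libraries lay above both controls (log2 change 0.78, SE 0.20, edgeR adjusted p = 0.0280). The call was lost with 1 control left, at log2 changes of 1.04 without control 1 and 0.535 without control 2. G6pdx, which encodes the entry enzyme of the branch, had 36 and 70 counts in differentiation and 51 and 34 in control (0.55, adjusted p = 0.328), and the groups overlapped. They also overlapped for Pgd, the phosphogluconate dehydrogenase gene, with 22 and 66 counts in differentiation and 48 and 52 in control (0.03, adjusted p = 0.974).

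Among other sugar transporters, Slc2a9, a urate and hexose carrier gene, came nearest to the threshold with 3 and 3 counts in differentiation and 14 and 17 in control (log2 change −2.04, SE 0.62, edgeR adjusted p = 0.0549). Slc2a13, the proton-coupled inositol transporter gene, had 91 and 85 counts in differentiation and 102 and 113 in control (0.03). Of 4 tested genes of lactate transport none passed. Slc16a3, the lactate exporter gene nearest to the threshold, had 4 and 2 counts in differentiation and 13 and 12 in control (−1.72, adjusted p = 0.133). Slc16a1 (0.81, adjusted p = 0.405) and the accessory protein gene Bsg (0.04) had positive changes. Of the flux regulators, Pfkfb3, whose enzyme makes the activator of phosphofructokinase, had −0.05 and Hif1a, the hypoxia transcription factor gene, had 0.14, and all 4 tested missed the threshold. Of 8 tested genes of pyruvate entry into mitochondria none passed, with Pdhx at 0.50 (adjusted p = 0.147) and Pdhb at 0.77 (adjusted p = 0.0891), and Pcx, the pyruvate carboxylase gene, had 0.41 (adjusted p = 0.183).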

How the data were processed

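Chimeric read counts per pair of RNAs in 4 libraries (2 differentiation, 2 control) were used as the authors deposited them, as whole-number counts with no normalization. The submitters' processing notes name STAR, without its version or role, and genome build GRCm38. A contact total is the sum of all pairs of an RNA, a within-RNA pair counted once, so a between-RNA pair enters 2 totals. Totals and pairs were each fitted over the whole table by edgeR 4.0.16 (quasi-likelihood F test, R 4.3.3, TMM scaling, filterByExpr with minimum count 5 and minimum total 10, two-sided). Adjusted p-values are Benjamini-Hochberg over 10993 RNAs or 31688 pairs, with a threshold of 0.05. SE is the log2 change over the root of F. The biological coefficient of variation was 18.7% over totals and 24.9% over pairs. On simulated data, 73 of 100 changes of 4-fold and 88 of 100 of 8-fold in contact totals were recovered (10993 features), and 39 and 72 of 100 in pairs (31688 features). False calls numbered 5 in totals and 2 in pairs. The simulated spread was the same for both and lower than that of the real pairs, so recovery in pairs may be overstated. Wilson and exact ratio intervals (95%) cover counting error only, since no molecular identifiers were used here.

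All 10 members and 26 of their 31 partners matched a symbol in a RefSeq gene table of GRCm38.p6, which gave coordinates and gene classes. Promoter letters are from RefSeq, and Slc2a3 had no entry. The members and the gene lists were chosen with earlier results of these data known. Named were all members, their within-RNA pair, up to 4 pairs of largest count and pairs past the threshold, partners shared by at least 5 members, and of the wider pathway the RNA past the threshold with up to 2 per role. The other pairs and genes (such as Slc2a9, Slc16a3, Pgd, and Slc2a1 with Malat1) were chosen after their values were seen. Column totals moved the median log2 change of all RNAs by 0.16. Alternatives were other scalings and filters, DESeq2 1.42.0, a replicate block, each library left out, and subsets of pairs, of which the sets without copies, without the pair of Gm6560 with Pkm and with 1 of each identical set were added after seeing the data.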

Additional observations from a re-analysis of the deposited data

How the results depend on the processing

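The 3 called totals stayed 3 calls with the same directions (1 higher, 2 lower) under RLE scaling, column totals, both filters, DESeq2, the replicate block and a robust dispersion. They numbered 2 over between-RNA pairs and without pairs of Gm42418 or Gm26917, and 0 to 5 when a library was left out. Called pairs of members numbered 1 under column totals, 1 with no low-count filter, 3 with the replicate block and 0 to 3 when a library was left out. Calls among the other pathway RNAs, 1 in all libraries, numbered 2 under column totals, 2 with the default filter, 4 with the replicate block, 3 with a robust dispersion, 3 over between-RNA pairs, 2 without Gm42418 or Gm26917, 6 at an adjusted p under 0.1 and 0 to 5 when a library was left out. Pkm reversed without pairs to pseudogenes or named copies (−0.456). Ldha reversed under column totals (0.01), over between-RNA pairs (0.013) and without differentiation 2 (range −0.519 to 0.221 with a library left out), and Aldoa with Aldoart1 without differentiation 1 (range −0.651 to 0.006). The share of all counts in member pairs reversed without the pair of Gm6560 with Pkm (a difference of −0.0118 percentage points against 0.0132), and the hub share moved to −6.80 against −14.5. The causes were not tested, except that fewer libraries or pairs entered the subsets. Replicate numbers carry no stated pairing, and the replicate 1 to 2 deviations of both groups correlated at 0.122 over RNAs and 0.018 over pairs. No pair joined 2 members, so leaving such pairs out changed nothing. Low counts limit Pgk1, Gapdh and most single pairs.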
